A study of Mus musculus with 9 samples.

Results

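NUP98-CDX4 and NUP98-CDX1 are fusions of the nuclear pore protein NUP98 with a caudal-type homeobox transcription factor, CDX4 or CDX1. The comparison here sets the 3 arrays titled NUP98-CDX4 against the 3 titled NUP98-CDX1, which are 6 of the 9 single-colour Illumina arrays of the study, across all genes measured. The other 3 arrays, from cells given the green fluorescent protein EGFP, served as a reference level. They also entered the fit, where they helped to estimate the spread and the difference between the 2 array sets described below. All 3 groups were marrow cells of C57/B6 mice aged 6 to 8 weeks treated with 5-FU, a drug that kills dividing cells and so enriches quiescent progenitors, and all were cultured in IMDM holding 2% serum plus IL-6 and stem cell factor. The labels call the cells transfected and name neither the promoter of the constructs nor a sort. Nothing in them says that replicates were separate cultures or animals, so the p-values reflect only how these arrays spread, which may be technical in part. Sex-linked genes, given below, differed among the arrays of each fusion.

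Caudal-type factors bind regulatory DNA of the Hox genes, and the A cluster of Hox genes is active in early blood progenitors and is switched off as myeloid cells mature. In human leukaemia, NUP98 is found fused to several homeobox proteins, and such fusions hold Hoxa genes and the cofactor Meis1 active. Maturing neutrophils make their granule proteins in waves, with myeloperoxidase and elastase first and lactoferrin, cathelicidin and the S100 proteins later. Progenitors grown with stem cell factor can also become mast cells, which are known by their proteases and by the receptor for IgE.

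Values are log2 intensities after background correction and quantile normalization, and a difference is NUP98-CDX4 minus NUP98-CDX1. The arrays fell into 2 sets that the labels do not name, seen in the probes detected on no array, where the Spearman correlation ran from 0.73 to 0.77 in a brighter set of 5 arrays, 0.43 to 0.46 in a dimmer set of 4 and 0.32 to 0.38 between them. For NUP98-CDX4, replicates 1 and 3 lay in the brighter set and replicate 2 in the dimmer one, while for NUP98-CDX1 replicate 3 was bright and the other two were dim. Since the fusions are unevenly spread over the sets, array set is a block in the model, and counts without it are given beside the main ones. The EGFP arrays help to estimate the set difference, so they also move the fitted differences between the fusions. The column names give day 28 for NUP98-CDX1, day 17 or 20 for NUP98-CDX4 and day 21 for EGFP, with no word on what the day counts, so fusion and day cannot be told apart. Xist, which shuts down 1 X chromosome in females, was detected only on 1 NUP98-CDX1 array (replicate 1) and 2 NUP98-CDX4 arrays (replicates 1 and 2). The brighter probe of the Y-linked gene Eif2s3y read 4.47 to 4.62 on these arrays and 9.88 to 10.45 on all others. The arrays of each fusion were thus not all from cells of a single sex, while no EGFP array showed Xist. Each array detected 17257 to 19300 of 45281 probes.

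The labelled tissue was checked against blood cell genes. Probes of Ptprc, Spi1, Vav1, Laptm5 and Coro1a, which mark blood cells, and of Kit, Cd34, Mpo, Elane and Myb, which mark progenitors and early myeloid cells, were detected on all 3 arrays of every group, and none passed between the fusions. The fused genes gave no check of the constructs. The brighter Cdx1 probe was detected on 1 NUP98-CDX1 array, 2 NUP98-CDX4 arrays and 2 EGFP arrays, the Cdx4 probe only on 1 EGFP array, and Nup98 differed by -0.03 (limma adjusted p = 0.958 in the fit over all genes). No source used here places these probes inside or outside the constructs.

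Cells with NUP98-CDX4 held more RNA of the prostaglandin-degrading enzyme Hpgd, of Hoxa10, Hoxa5 and Hoxa3 and of the lectin Clec10a than cells with NUP98-CDX1. They held less RNA of 7 of 18 mast cell genes, led by Cpa3, of 11 of 28 late neutrophil genes, led by the stefin Stfa1, and of 16 of 40 interferon response genes, led by Oasl1. Of 10018 genes, 168 (1.68%) passed an adjusted p of 0.05 with limma, 38 higher (0.379%) and 130 lower (1.30%) in NUP98-CDX4. At least 2-fold differences were found for 14 of the higher and 74 of the lower genes. Without array set in the model 18 genes (0.180%) passed, 4 higher (0.0399%) and 14 lower (0.140%), and all 18 were among the 168. With the presence of Xist as a further term 97 genes (0.968%) passed, 83 of them shared. From only the 6 fusion arrays 49 genes passed, 47 of them shared. The median difference of all genes was 0.01.

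**Figure D1:**
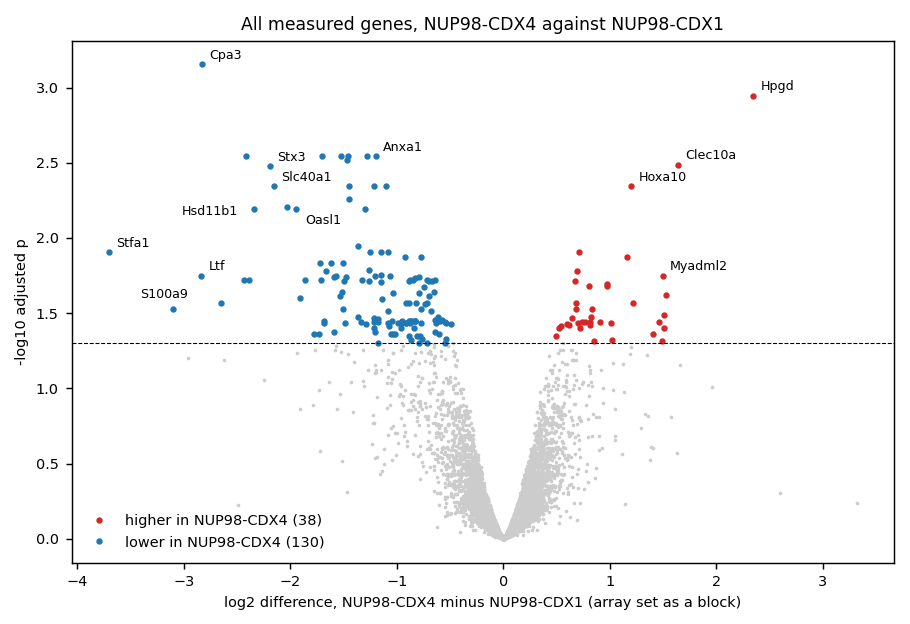
Difference of each measured gene (x axis, log2, NUP98-CDX4 minus NUP98-CDX1, array set as a block) against the negative log10 of its adjusted p (y axis), with the dashed line at 0.05. The 130 lower genes in blue reach to -3.70 for Stfa1, and the 38 higher genes in red reach 2.35 for Hpgd.

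The EGFP level showed on which side of the control the fusions stood. Of the 38 higher genes, 29 had a mean in EGFP below both fusions, 8 had it between them and 1 above both. Of the 130 lower genes, 91 had a mean in EGFP above both fusions, 33 between them and 6 below both. These are positions of plain group means, without a test and with array set not taken into account. The same shares over all genes were not counted, so whether these are unusual is not known.

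Hpgd, which encodes the enzyme that inactivates prostaglandins, read 7.99, 7.86 and 8.26 on the NUP98-CDX1 arrays and 10.94, 10.23 and 10.34 on the NUP98-CDX4 arrays. It was detected on no EGFP array. The 3 NUP98-CDX4 arrays lay far above the other 6, with no overlap. The difference was 2.35 with an SE of 0.16, or 5.09-fold (adjusted p = 0.00114), and it also passed without array set (adjusted p = 0.00732) and with Xist (adjusted p = 0.00155). Of the other 14 genes measured on the prostaglandin and leukotriene list, Ltb4r1, the receptor for leukotriene B4, was the only one that passed, at -1.34 (adjusted p = 0.0363). The list does not hold the thromboxane receptor gene Tbxa2r, which rose and is described below.

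Among the Hoxa genes, Hoxa10 was detected on no NUP98-CDX1 array and no EGFP array and read 5.93, 6.18 and 6.09 in NUP98-CDX4. Its rise was at least 1.68-fold (adjusted p = 0.00455), where the bound sets undetected arrays to their lowest detected signal. Hoxa5 read 9.82, 9.95 and 9.46 in NUP98-CDX1 and 10.45, 10.76 and 10.54 in NUP98-CDX4, against 6.96 to 7.73 in EGFP. Its fusion arrays did not overlap, both groups stood above EGFP, and the difference was 0.97 with an SE of 0.15, or 1.96-fold (adjusted p = 0.0203). Hoxa3, like Hoxa10, was undetected in NUP98-CDX1 and EGFP and rose at least 1.60-fold (adjusted p = 0.0207).

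The other Hoxa genes measured did not pass. Hoxa9, the member most tied to myeloid leukaemia, read 9.39, 9.53 and 9.58 in NUP98-CDX1 and 10.22, 10.24 and 10.33 in NUP98-CDX4. These arrays did not overlap, while the EGFP arrays spread from 6.60 to 8.27, and the difference was 0.90 with an SE of 0.32 (adjusted p = 0.256). Within the brighter and dimmer sets the fusions differed by 0.70 and 0.78, and by 0.76 without array set. The fitted value lies above each of these because the EGFP arrays enter the estimate of the set difference. Hoxa2 differed by 0.79 (adjusted p = 0.0949) and Hoxa7 by 0.56 (adjusted p = 0.13), while Hoxa4 was at -0.20 and Hoxa13 at -0.04. In all, 3 of 8 Hoxa genes rose and none fell. Their median of 0.85 became 0.71 when undetected genes were put at their bound. Hoxa10 and Hoxa3 were kept for testing because all 3 NUP98-CDX4 arrays, and no others, detected them. The choice of probes thus itself favoured a rise for both. At a detection p under 0.01, 6 Hoxa genes were measured and 1 rose, while 3 of 10 rose when no detection filter was used. Without array set 1 of the 8 passed, Hoxa10. Without NUP98-CDX1 replicate 3 none did, and without NUP98-CDX1 replicate 2 or NUP98-CDX4 replicate 2, 1 did.

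The cofactors that bind DNA with Hox proteins gave no call among 8 measured. Meis1 read 10.64, 10.50 and 11.25 in NUP98-CDX1 and 11.59, 11.67 and 11.55 in NUP98-CDX4, against 9.78 to 9.91 in EGFP. The fusion arrays were apart, yet the difference of 0.75 (SE 0.18) did not pass (adjusted p = 0.0902). Pbx3 ran the other way, at -0.38 (adjusted p = 0.37), with both fusions above EGFP. Of 17 genes tied to leukaemia with Hox or NUP98 fusions none passed by its brightest probe, and the smallest adjusted p was that of Eya1, a phosphatase and transcriptional coactivator, at 0.81 (adjusted p = 0.0754). Bcl2, a member of that list, did not pass by its brightest probe (0.45, adjusted p = 0.0786), but 1 of its 5 other probes did, at 0.93 (adjusted p = 0.0244). Of 21 stem and progenitor cell genes, the zinc finger gene Ikzf2 rose by 0.71 (adjusted p = 0.037) and the repressor Gfi1 fell by 0.63 (adjusted p = 0.0369), both with arrays that overlapped before the set was taken into account. None of the 21 passed without array set, with Xist as a further term or from only the 6 fusion arrays. With 1 array left out, the 2 genes passed only in the fit without NUP98-CDX4 replicate 3.

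Clec10a, a macrophage and dendritic cell lectin that binds galactose-type sugars, was detected on 1 NUP98-CDX1 array and no EGFP array, and read 6.84, 6.69 and 7.25 in NUP98-CDX4. It rose 2.90-fold once undetected arrays were set to their lowest detected signal (adjusted p = 0.00326). Its near copy Mgl2 rose by 1.46 (adjusted p = 0.0362), although a second Mgl2 probe gave 0.62 (adjusted p = 0.182), and bead probes may not fully separate the pair. Of the 7 dendritic cell genes measured, which do not include Mgl2, Clec10a alone passed.

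Other large rises belonged to none of the gene lists. Myl10, a myosin light chain, read 9.19, 9.41 and 8.74 in NUP98-CDX1 and 10.17, 10.50 and 11.16 in NUP98-CDX4, a rise of 1.51 (adjusted p = 0.0397). Tbxa2r, the thromboxane receptor, rose 2.77-fold with undetected arrays raised (adjusted p = 0.0482). A second Tbxa2r probe gave 0.76 (adjusted p = 0.244). Fam169b and Tctex1d1 rose 2.56-fold and 2.80-fold with 1 undetected array raised. Myadml2 rose by 1.50, Ccdc92 by 1.02, Zc2hc1a by 1.22 and Ndrg2 by 1.16, the last with a second probe at 0.64 (adjusted p = 0.169). Zc2hc1a differed from the rest of these in that EGFP stood near NUP98-CDX4, at 7.04 to 7.68, and its second probe gave 0.59 (adjusted p = 0.257). Myadml2 was the only one of these 8 genes that also passed without array set.

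**Figure D2:**
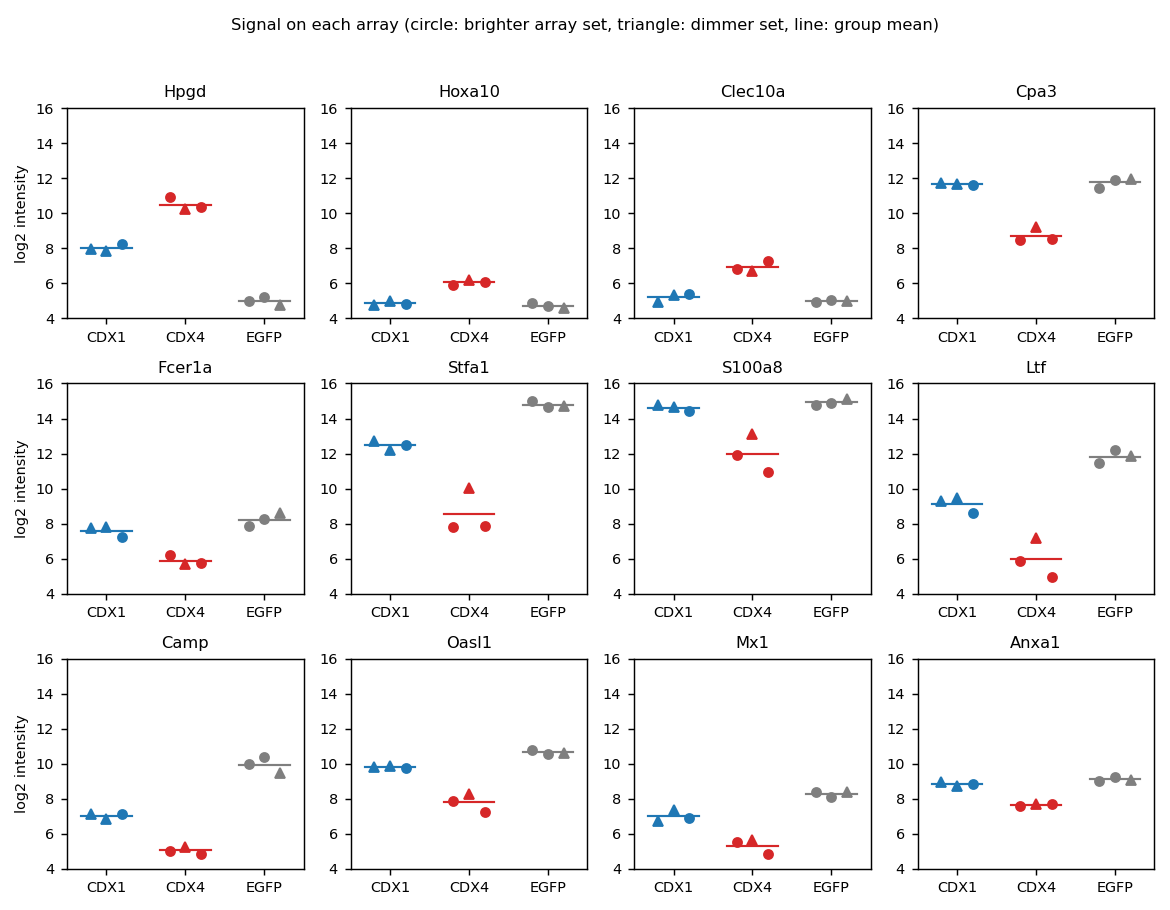
Log2 intensity (y axis) of 12 genes on each array of the 3 groups (x axis), with circles for the brighter array set, triangles for the dimmer set and lines for group means. Hpgd stands at 10.23 to 10.94 in NUP98-CDX4 against 7.86 to 8.26 in NUP98-CDX1, and Cpa3 at 8.47 to 9.20 against 11.63 to 11.71.

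Of the mast cell genes, Cpa3 set the fusions apart most. Cpa3, the carboxypeptidase of mast cell granules, read 11.71, 11.69 and 11.63 in NUP98-CDX1, 8.47, 9.20 and 8.51 in NUP98-CDX4, with 11.46 to 11.97 in EGFP. NUP98-CDX1 arrays thus stood at the EGFP level and NUP98-CDX4 arrays far below it, a difference of -2.83 with an SE of 0.17, or 7.12-fold (adjusted p = 0.000703). Hdc, which makes histamine, read 13.56, 13.18 and 12.60 in NUP98-CDX1 and 11.34, 11.32 and 10.98 in NUP98-CDX4, a fall of 3.30-fold (adjusted p = 0.0147). The chains of the IgE receptor fell as well, Fcer1a by 1.61 (adjusted p = 0.0147) and Ms4a2 2.17-fold with 1 undetected array raised (adjusted p = 0.0347). The chymase genes Cma1 and Cma2 were detected on all NUP98-CDX1 arrays and on no NUP98-CDX4 array, at least 1.47-fold and 1.73-fold apart. Unlike Cpa3, Cma2 stood well below EGFP in NUP98-CDX1 as well, at 5.67 to 6.66 against 9.98 to 10.53. Slc45a3, a transporter gene, was 1.80-fold lower in NUP98-CDX4 with undetected arrays raised.

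In all, 7 of 18 mast cell genes fell and none rose, with a median of -0.60, or -0.47 with undetected genes at their bound. Kit, the receptor for stem cell factor, at -0.19 and the factors Gata2 at -0.15 and Mitf at -0.02 did not pass. The summed signal of the list was 34614 to 41033 in NUP98-CDX1, 23644 to 24967 in NUP98-CDX4, with 33305 to 45439 in EGFP, with no overlap between the fusions. The brightest genes weigh most in such a sum. The mean log2 level of the list was 8.44 to 8.69 in NUP98-CDX1, 7.67 to 7.73 in NUP98-CDX4 and 9.23 to 9.60 in EGFP. By that measure NUP98-CDX1 also lay below EGFP. In such bulk samples fewer cells of a type and less RNA per cell cannot be told apart, and this holds for every cell type list here. Of the 18, 2 passed without array set and 6 with Xist as a further term, and with 1 array left out 1 (without NUP98-CDX1 replicate 3 or NUP98-CDX4 replicate 2) to 6 passed.

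Of 13 basophil and eosinophil genes 2 fell. Prss34, a basophil protease, read 10.23, 9.89 and 9.24 in NUP98-CDX1 and 6.83, 7.74 and 6.22 in NUP98-CDX4, but ranged from 7.78 to 10.22 over the EGFP arrays. The fusions did not overlap, and the fall was 5.41-fold (adjusted p = 0.0189). Cd200r3, a receptor of basophils and mast cells, fell by 1.57 (adjusted p = 0.0178), while its second probe gave -0.80 (adjusted p = 0.119). The count was 0 without array set, without NUP98-CDX1 replicate 3 and without NUP98-CDX4 replicate 2.

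The 2 largest falls, Stfa1 and S100a9, were late neutrophil genes. Stfa1, a stefin that inhibits cysteine proteases, read 12.74, 12.18 and 12.49 in NUP98-CDX1, 7.78, 10.01 and 7.83 in NUP98-CDX4, with 14.64 to 14.99 in EGFP. The groups stepped down from EGFP over NUP98-CDX1 to NUP98-CDX4 with no overlap, and the fusions differed 13-fold (difference -3.70, SE 0.46, adjusted p = 0.0125). Stfa2 read 7.90, 7.44 and 7.65 in NUP98-CDX1 and was detected on 1 NUP98-CDX4 array, 4.29-fold apart with undetected arrays raised (adjusted p = 0.00285). Other stefin genes ran alike, Csta3 at least 1.73-fold lower and Cstdc5 at least 3.94-fold lower in NUP98-CDX4. Stefin genes lie in a cluster of near copies, and a bead probe can catch RNA of its neighbours, and 5 of 11 members of the wider cystatin list fell (median -1.52), the fifth being Cst7, a cystatin of myeloid and cytotoxic cells, at -1.52. This count was 3 without array set and 1 (without NUP98-CDX1 replicate 3) to 5 with 1 array left out.

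The S100 pair of neutrophil cytosol followed. S100a8 read 14.78, 14.66 and 14.42 in NUP98-CDX1 and 11.90, 13.10 and 10.92 in NUP98-CDX4, 5.23-fold lower (adjusted p = 0.0189). S100a9 read 11.63, 11.42 and 12.65 against 9.21, 9.66 and 7.98, 8.58-fold lower (adjusted p = 0.0296). The NUP98-CDX4 arrays spread by more than 1 log2 unit for both genes, yet stayed below all NUP98-CDX1 arrays. No other S100 gene of 11 measured passed. Neither of the pair passed without array set, from the 6 fusion arrays alone, without a detection filter or without NUP98-CDX1 replicate 3.

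Genes of the later granules were among the falls. Ltf, which encodes lactoferrin, read 9.27, 9.43 and 8.61 in NUP98-CDX1 and was detected on 2 NUP98-CDX4 arrays, 6.54-fold apart with the undetected array raised (adjusted p = 0.0178), although a second Ltf probe gave -0.40 (adjusted p = 0.642). Camp, the cathelicidin, read 7.12, 6.85 and 7.12 in NUP98-CDX1, was detected on 1 NUP98-CDX4 array, and stood 3.45-fold apart (adjusted p = 0.00619). Lcn2, an iron-carrier binding protein, fell by 0.76 (adjusted p = 0.0472) and Wfdc21 was 3.32-fold lower with 1 undetected array raised (adjusted p = 0.0436). Anxa1, an annexin that dampens neutrophil entry, read 8.93, 8.74 and 8.85 against 7.58, 7.67 and 7.71, a tight difference of -1.20 (SE 0.11, adjusted p = 0.00285), and Anxa3 fell by 1.10 (adjusted p = 0.0045). Cebpe, the factor needed for late granules, fell by 1.53 (adjusted p = 0.0245).

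Counted over the list, 11 of 28 late neutrophil genes fell and none rose, with a median of -1.005, or -0.86 with undetected genes at their bound. Members that did not pass include Ngp at -2.63 (adjusted p = 0.065), Mmp9 at -0.19, Csf3r at -0.05 and Cxcr2 at 0.14. The summed signal was 84086 to 89392 in NUP98-CDX1, 29138 to 52419 in NUP98-CDX4, with 150997 to 171234 in EGFP, so that no 2 groups overlapped. On the list for the early granules 2 of 14 genes fell, Cst7, the cystatin already counted above, and Gstm1. A second Gstm1 probe gave 0.06 (adjusted p = 0.934). Neither gene encodes myeloperoxidase or elastase, the early granule proteins named above. None of the 14 passed without array set, without NUP98-CDX1 replicate 2 or 3 or without NUP98-CDX4 replicate 2. Mpo, Elane and 10 others did not pass, and Elane differed by -1.09 (adjusted p = 0.136). The late count was 5 without array set, 12 with Xist as a further term, and 2 (without NUP98-CDX1 replicate 3) to 11 with 1 array left out.

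**Figure D3:**
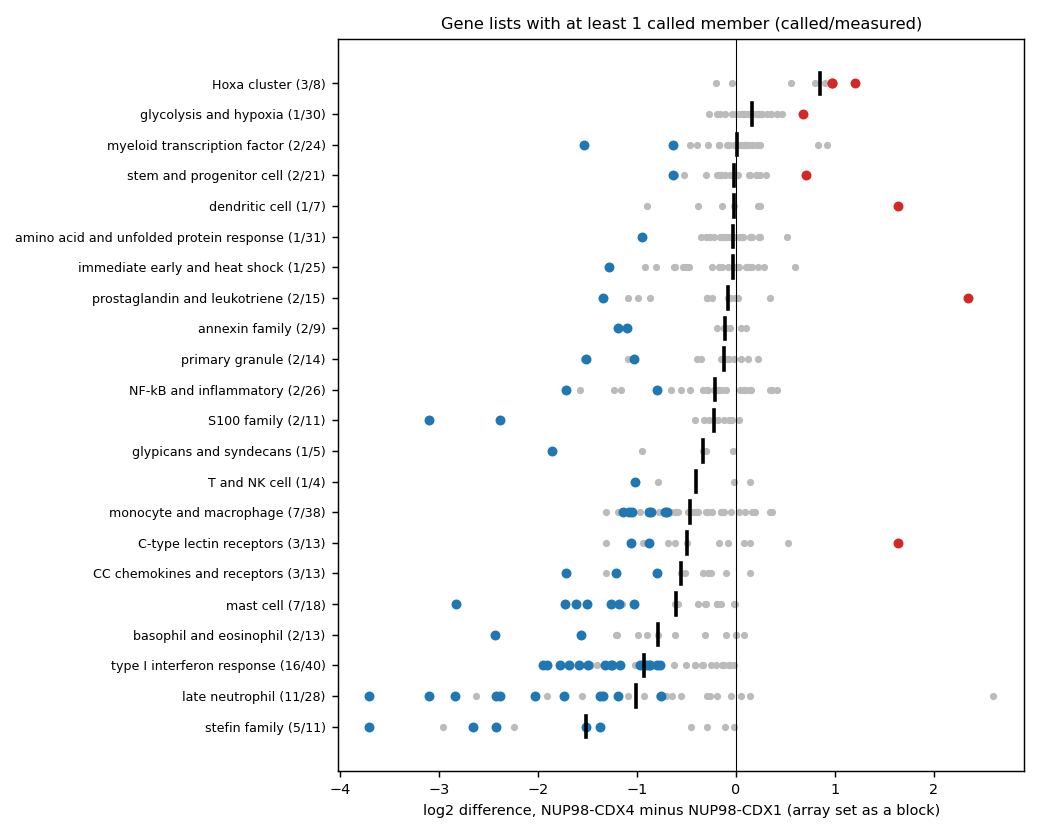
Differences of the members (dots, log2, x axis) of each list with a called member (y axis, called over measured in brackets), red and blue for genes called higher and lower in NUP98-CDX4, grey for others, black bars for medians. The Hoxa list has its median at 0.85, and the late neutrophil and interferon lists have theirs at -1.005 and -0.92.

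Among monocyte and macrophage genes 7 of 38 fell and none rose, with a median of -0.46. This list does not hold the lectin genes Clec10a and Mgl2, which rose. Fcgr3, a receptor for IgG, read 10.27, 10.07 and 10.38 in NUP98-CDX1, 9.52, 9.05 and 8.83 in NUP98-CDX4, with 10.32 to 10.61 in EGFP, 2.21-fold lower in NUP98-CDX4 (adjusted p = 0.0254). Cd14, the receptor for endotoxin, fell by 0.70 (adjusted p = 0.0193), and in NUP98-CDX1 it stood at 10.60 to 10.73, above 9.69 to 9.94 in EGFP. Lysozyme 2 (Lyz2) fell by 1.08, the mannose receptor Mrc1 by 0.85, Clec4d, a lectin that senses fungi, by 0.87, Ms4a6c by 0.71 and Emp1 by 1.05. Adgre1, which encodes the macrophage antigen F4/80, was at -0.78 and did not pass (adjusted p = 0.131). None of the 38 passed without array set, and with 1 array left out 0 (without NUP98-CDX1 replicate 2 or 3) to 5 passed.

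Of 13 CC chemokines and receptors, 3 fell, all ligands that draw monocytes. Ccl7 read 8.63, 8.21 and 7.57 in NUP98-CDX1 and was detected on 2 NUP98-CDX4 arrays, 3.28-fold apart (adjusted p = 0.0189). Ccl2 was detected on all NUP98-CDX1 arrays and on no NUP98-CDX4 array, at least 1.24-fold apart (adjusted p = 0.0234), and Ccl12 was 2.16-fold lower with 1 undetected array raised (adjusted p = 0.0421). None of the 13 passed without array set, and with 1 array left out 0 (without NUP98-CDX1 replicate 3 or NUP98-CDX4 replicate 2) to 3 passed.

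Interferon response genes gave the most calls of any list, 16 of 40, all lower in NUP98-CDX4. Oasl1, a relative of the oligoadenylate synthetases, read 9.81, 9.86 and 9.78 in NUP98-CDX1, 7.86, 8.28 and 7.23 in NUP98-CDX4, with 10.58 to 10.80 in EGFP. NUP98-CDX1 stood a little below EGFP and NUP98-CDX4 well below both, with a fall of 3.85-fold between the fusions (difference -1.95, SE 0.22, adjusted p = 0.00643). Mx1, an antiviral GTPase, was detected on 2 NUP98-CDX4 arrays and was 2.71-fold lower with the third raised (adjusted p = 0.0181). Rsad2, the antiviral enzyme viperin, read 11.46, 11.90 and 11.06 against 9.49, 10.08 and 8.26, 3.75-fold lower (adjusted p = 0.025).

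None of the 40 rose, and the median was -0.92, with a negative difference for each of them, passing or not. Irf7, the factor that amplifies the response, fell by 1.78 (adjusted p = 0.0436), and Isg15, a ubiquitin-like protein, by 1.49 (adjusted p = 0.037). The RNA sensor Ddx58 fell by 0.91, its relative Ifih1 was at least 1.07-fold lower, Cmpk2 fell by 1.25, Rtp4 by 1.32, Isg20 by 1.27 and Ifit2 by 1.17. Ifi205 was 2.81-fold lower with undetected arrays raised, and Parp12, Trim30a, Igtp and Gbp2 fell by 0.96, 0.86, 0.88 and 0.79. Only Oasl1 and Mx1 passed without array set, and 5 of the 40 with Xist as a further term. From only the 6 fusion arrays 1 passed, and 2 with the replicate number as a block beside array set. With 1 array left out 0 (without NUP98-CDX1 replicate 3) to 16 passed. The median of the list lay between -1.05 and -0.77 in all 24 other settings, which reuse the same arrays and so are no separate support.

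Promoters were read for this list, which had the most calls. The interferon-stimulated response element, searched as GAAANNGAAA on both strands from 250 bases before to 50 bases after the start, was found in 17 of 30 list members with a promoter sequence, against 3.92% of 8193 measured genes and 3.99% of 27025 genes in all. It was in 8 of 14 members that fell (57.1%) and in 9 of 16 that did not pass (56.2%). The sequences below are the 150 bases before the start of 4 members that fell, from RefSeq's GRCm38.p6, 5′ to 3′ on the strand of the gene, with the motif in capitals. All but Rsad2 were picked with their values in view, to show a single match on either strand and a run of overlapping ones.
Rsad2, chr12:26456453-26456602, minus strand: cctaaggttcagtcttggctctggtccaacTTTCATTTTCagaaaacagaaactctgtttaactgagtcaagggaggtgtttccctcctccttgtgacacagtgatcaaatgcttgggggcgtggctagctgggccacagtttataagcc
Isg15, chr4:156200819-156200968, minus strand: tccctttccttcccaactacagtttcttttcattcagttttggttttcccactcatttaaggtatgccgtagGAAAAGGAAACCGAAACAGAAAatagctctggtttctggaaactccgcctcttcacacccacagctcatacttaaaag
Igtp, chr11:58199406-58199555, plus strand: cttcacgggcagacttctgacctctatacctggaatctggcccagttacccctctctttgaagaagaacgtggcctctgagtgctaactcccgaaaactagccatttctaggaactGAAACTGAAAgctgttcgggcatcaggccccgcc
Gbp2, chr3:142620513-142620662, plus strand: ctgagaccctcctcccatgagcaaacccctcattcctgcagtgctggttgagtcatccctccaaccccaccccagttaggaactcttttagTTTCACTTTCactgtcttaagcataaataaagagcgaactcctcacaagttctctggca
Isg15 holds 3 overlapping matches, Igtp 1 on the strand shown, and Rsad2 and Gbp2 1 each on the opposite strand. A match of letters is a description and shows no binding.

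Several genes outside these groups were among the largest falls. Hsd11b1, which regenerates active glucocorticoid, read 11.46, 11.05 and 10.42 in NUP98-CDX1, 8.52, 9.04 and 7.81 in NUP98-CDX4, with 11.66 to 11.80 in EGFP, 5.06-fold lower (adjusted p = 0.00643). Stx3, a syntaxin of vesicle fusion, was detected on all NUP98-CDX1 and EGFP arrays and on no NUP98-CDX4 array, at least 3.93-fold apart (adjusted p = 0.00332). Slc40a1, the iron exporter ferroportin, read 8.39, 8.27 and 7.39 in NUP98-CDX1 and was detected on 2 NUP98-CDX4 arrays, 4.04-fold apart with the other raised (adjusted p = 0.00455). Rgcc, a regulator of the cell cycle, fell by 1.51, the claudin Cldn15 by 1.46 and the stress-induced factor Atf3 was 2.15-fold lower with undetected arrays raised. Mogat2, an acyltransferase of fat synthesis, was undetected in NUP98-CDX4 and at least 2.20-fold lower, though a second probe gave -0.50 (adjusted p = 0.606).

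Gpc3, a heparan sulphate carrier of the cell surface, differed from most falls in where EGFP stood. It read 9.08, 8.95 and 8.31 in NUP98-CDX1, 6.80, 6.69 and 6.53 in NUP98-CDX4, with 5.15, 5.53 and 6.80 in EGFP. NUP98-CDX1 was thus the high group, and the difference from NUP98-CDX4 was 3.63-fold (adjusted p = 0.0189).

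Many lists gave no call in either direction. None of 36 genes of the G1/S transition and replication, 26 of G2/M, 19 cyclins and inhibitors, 21 of the p53 response, 23 of ribosome and Myc, 29 polycomb and trithorax genes and 25 of sterol synthesis passed, and their medians lay between -0.0045 and 0.11. Neither did 12 MHC class II genes, 12 erythroid, 12 megakaryocyte and 7 B cell genes, 4 Hoxb genes or 25 receptors for cytokines. The megakaryocyte list had a median of -0.33, with 11 of its 12 differences negative. The B cell list had a median of 0.17, or 0 with undetected genes at their bound. Of 16 BCL2 family genes none passed by its brightest probe. Ankrd37, a hypoxia-induced gene, rose by 0.68 (adjusted p = 0.0296) as the only call among 30 glycolysis and hypoxia genes.

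Differences had the same direction in both array sets for all 168 genes that passed, but the same arrays selected them. The arrays of the fusions did not overlap for 153 of the 168, against 4.65% of all genes with NUP98-CDX4 wholly above and 5.85% with it wholly below. Selection by the same arrays favours such a lack of overlap as well, so it is no separate support. A test of whether the difference between the fusions itself differed between sets called 0 of 10018 genes with limma, while 354 had an unadjusted p under 0.05. Stfa1, for example, differed by -4.68 in the brighter set and -2.45 in the dimmer one. Within a set 1 fusion has a single array, NUP98-CDX1 replicate 3 in the brighter set and NUP98-CDX4 replicate 2 in the dimmer one. The test between sets rests on these single arrays, so its counts cannot show whether the sets differ.

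**Figure D4:**
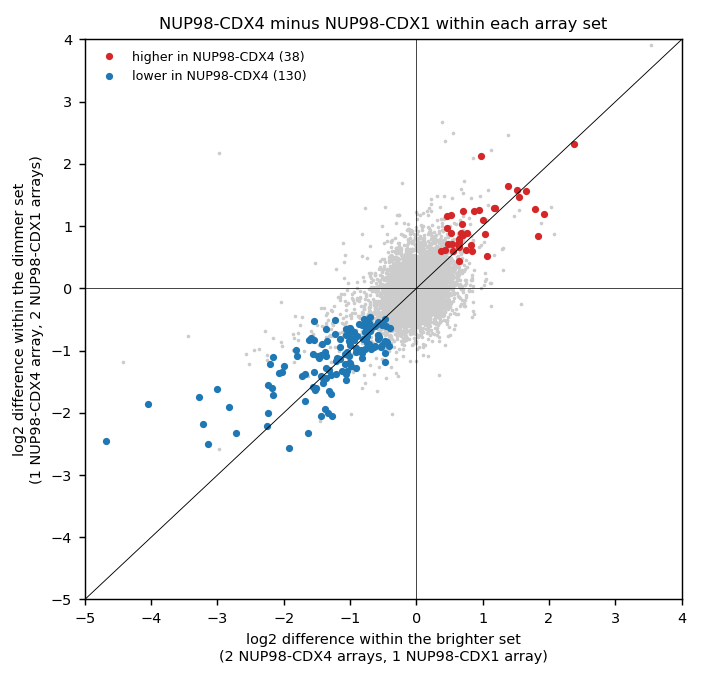
Difference between the fusions for each measured gene within the brighter set (x axis, log2, 2 NUP98-CDX4 arrays and 1 NUP98-CDX1 array) and the dimmer set (y axis, 1 and 2 arrays), with the line of equality. The 38 higher genes in red and 130 lower genes in blue lie in the quadrants of like sign.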

How the data were processed

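The intensity table deposited by the authors holds non-normalized probe signals from GenomeStudio, per the submitters' processing notes, with no version named. Detection p-values are those the authors deposited beside each signal. Their second set of processed intensities, of unstated normalization, served as an alternative.

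The neqc function of limma 3.58.1 (offset 16) corrected background, with negative controls inferred through the detection p-values, and normalized by quantiles, in R 4.3.3 with data.table (version 1.17.8). Kept were 19472 probes whose detection p fell below 0.05 on 3 or more of the 9 arrays, and the brightest probe stood for a gene, which left 13160 features, of which 10018 are named genes and 3142 have no symbol. Of 45281 probes, 34885 have 1 symbol in the platform annotation, 18 several and 10378 none, and 34807 were found in RefSeq's gene list, with 0 symbols changed. Of the unnamed features 25 passed, and they are only counted. One limma model with group and array set was fitted to all 9 arrays, with Benjamini-Hochberg adjustment over all features at 0.05. Array sets were found by clustering the 21684 probes detected on no array. Where a group had no array detecting a probe, a bound is given, each array raised to its lowest detected signal. In other groups with undetected arrays, folds written as raised use the same floor.

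Genes named are the fused genes, the 12 steepest rises and 12 steepest falls of those that passed with the same sign in both sets and full detection in the higher group, those that also passed without array set, up to 6 passing members of each of 49 lists (or the 2 with the smallest p), all Hoxa genes and Hox cofactors, and sex-linked genes. Some are left out of the text. Where a count is given in full, further list members are named, picked with their values in view. The comparison, the model and the lists were chosen with earlier results of these data known. For 24 genes that passed another probe was tested. Of these 32 probes 22 passed in the same direction, 0 in the opposite one, and 1 had the opposite sign. On simulated data with 200 of 13160 features changed, the model recovered 81.5% of changes of 1 on the log2 scale and 98% of changes of 2, with 7.91% and 5.77% of its calls false. The simulated data were drawn from this fitted model with independent normal noise, so the rates do not show how it performs on these arrays. The number of arrays limits the precision.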

Additional observations from a re-analysis of the deposited data

How the results depend on the processing

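The 168 calls between the fusions depended on the model and on single arrays, while none of the 168 differences changed sign in any of the 22 settings with a test. The count was 18 without array set, 97 with array set and Xist, 49 from only the 6 fusion arrays, 70 without a detection filter, 276 with quantile normalization and no background correction, 283 with the authors' processed values and 261 with an intensity trend and robust prior. With 1 array left out it lay between 20 and 158. It fell to 51 and 20 without NUP98-CDX1 replicates 2 and 3, to 94 and 40 without NUP98-CDX4 replicates 1 and 2, and to 106, 89 and 90 without each EGFP array in turn. An array set holds a lone array of a fusion in the case of NUP98-CDX1 replicate 3 and of NUP98-CDX4 replicate 2. The other 4 settings gave 161 to 201. With the replicate number as a block beside array set 59 genes passed, 57 of them among the 168, and in place of array set 1 passed. Beside array set, the block moved the interferon calls from 16 to 2, the monocyte and macrophage calls from 7 to 1 and the S100 calls from 2 to 0. The replicate numbers were not taken to pair the samples. Once array set was removed, deviations of same-numbered arrays of the fusions correlated at 0.02, -0.06 and -0.21, and those of NUP98-CDX4 with EGFP at -0.20, 0.19 and 0.29, while those of NUP98-CDX1 with EGFP were all above 0.1, at 0.15, 0.16 and 0.48. Of the 65 named genes that passed, Cpa3 alone passed in all 22 settings, and 18 passed without array set. Of 1176 list medians computed, 75 moved by more than the spread between replicates. The interaction of fusion and array set called 0 genes under either detection filter. Where no array of a group detected a gene, its fold in the text is a bound.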

Other observations

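A number of genes that passed belong to none of the groups described, and those named here were chosen after their values were seen. Lower in NUP98-CDX4 were the cytokine genes Il15 and Il18, by 1.22 (adjusted p = 0.0341) and 1.21 (adjusted p = 0.00455), and Inhba, an activin subunit, which was detected on all NUP98-CDX1 arrays and on no NUP98-CDX4 array. Dgat2, an acyltransferase that makes triglyceride, fell by 1.66 (adjusted p = 0.0166) and Lpcat2, which makes phosphatidylcholine, by 1.45 (adjusted p = 0.0045). Scin, which severs actin filaments, fell by 1.45 (adjusted p = 0.0055), and Xdh, the enzyme that makes uric acid, by 1.48 (adjusted p = 0.0181). The activating receptor gene Pilrb1 and the collagenase gene Mmp13 were each detected on all NUP98-CDX1 arrays and on 1 NUP98-CDX4 array.

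Higher in NUP98-CDX4 were Slpi, a protease inhibitor, by 0.91 (adjusted p = 0.0362), P2ry14, a receptor for UDP-glucose, by 0.84 (adjusted p = 0.0296), Tsc22d1 by 0.74 (adjusted p = 0.0362) and Dach1, a nuclear cofactor, 2.01-fold with 1 undetected array raised (adjusted p = 0.037). For these 4 genes the mean in EGFP lay below both fusions. Hcar2, a receptor for niacin, fell by 1.08 (adjusted p = 0.0125) and had its highest mean, 7.41, in NUP98-CDX1, against 6.21 in NUP98-CDX4 and 5.28 in EGFP.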
